A study of Mus musculus with 18 samples.

Results

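The Hox cluster genes were followed as a family through fetal thymocytes that carry or lack Gli3. They were chosen by name: a list of 38 mouse Hox genes, of which 36 had a row of their own on the array and 2 (Hoxa11 and Hoxd4) were covered only by rows that carry several gene symbols. The 36 measured genes stand among 22180 genes measured in all. By cluster they divide into 9 Hoxa genes on chromosome 6, 10 Hoxb genes on chromosome 11, 9 Hoxc genes on chromosome 15 and 8 Hoxd genes on chromosome 2. By position along the clusters, 10 were anterior (paralogue numbers 1 to 4), 11 central (5 to 8) and 15 posterior (9 to 13). Thymocytes came from mouse fetuses at embryonic day 18.5, which were homozygous mutant (Gli3-/-), heterozygous (Gli3+/-) or wild type (WT), on a C57BL/6 background. The mutation is germline, so stroma, other tissues and earlier progenitors carried it as well. From each genotype 3 populations were sorted: CD69- DP (CD4+CD8+CD69-), CD69+ DP (CD4+CD8+CD69+, cells whose TCR has signalled) and SP4 (CD4+CD8-). There were 2 arrays a group, with the numbers 1 and 2 in their labels, and 18 arrays in 9 groups. The labels do not say whether the arrays of a group came from separate fetuses or whether fetuses were pooled. P-values therefore measure only the spread between these samples, which may be technical. The 2 WT arrays of each population did differ in sex-linked markers, as given below.

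Hox proteins are homeodomain transcription factors that give cells along the body axis their positional identity. Each cluster holds its genes in the order in which they are used, with low paralogue numbers expressed anteriorly and high numbers posteriorly, and Polycomb and Trithorax complexes keep the clusters silent or active. Gli3 is the main repressor of the Hedgehog pathway, and in the limb bud its loss lets posterior Hoxd genes spread anteriorly. In blood, Hoxa genes such as Hoxa9 and Hoxa10 mark stem and progenitor cells and are turned down as cells mature, and Hoxa3 is needed in the pharyngeal region for the thymus to form.

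Values are normalised microarray transcript expression on a linear scale, called intensity here, and differences are log2 differences of it, the first-named group minus the second. The medians of the 18 arrays lay between 59.3 and 65.8. Gli3 itself was between 27.9 and 32.7 on Gli3-/- arrays, between 27.6 and 34.0 on Gli3+/- arrays and between 29.4 and 37.1 on WT arrays. The position of its probes against the mutation is unknown here, and its dim row does not check the labels. Sex and genotype cannot be told apart: of 4 measured sex-linked markers (5 listed) 3 were called lower in Gli3-/- CD69- DP cells than in those of WT fetuses and 2 in each of the other populations, and their sums lay between 3694 and 4910 on Gli3-/-, 3502 and 4277 on Gli3+/- and 1095 and 3702 on WT arrays. The WT arrays stood apart by number, with 1095 to 1635 on the 3 of number 1 and 3333 to 3702 on the 3 of number 2. Without WT replicate 1 of the population no Hox gene passed between Gli3-/- and WT, and the family medians given below were +0.08 in CD69- DP, +0.04 in CD69+ DP and -0.03 in SP4 cells. Myeloid markers were high in sorted SP4 cells, with 7 of 9 called higher than in CD69- DP cells, beside 5.94% of all genes. The myeloid sums lay between 385 and 421 in CD69- DP, 419 and 806 in CD69+ DP and 604 and 1594 in SP4 arrays. The DP genes Cd8a and Dntt were lower in SP4 than in CD69- DP cells (log2 -1.08 and -1.32, adjusted p = 1.21e-04 and 0.00137, limma), which is the direction the sort gives for Cd8a.

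Hox cluster genes gave dim rows in all 3 populations and all 3 genotypes. In bulk samples such as these, fewer cells of a type and less RNA per cell cannot be told apart. The mean intensities of the 36 genes over the 18 arrays ran between 13.2 and 98.1, with a median of 39.2 against 67.0 for all genes. On each of the 18 arrays 26 of the 36 were dimmer than the array's median row, 4 (Hoxa6, Hoxb5, Hoxd8 and Hoxd10) were brighter on every array, and 6 fell on both sides. For a scale of what such intensities can mean, the 1394 olfactory and vomeronasal receptor genes on the array, which serve the sensing of odours in the nose, had a median of 14.5 and ran between 8.36 and 73.1 from the 5th to the 95th percentile, and 32 of the 36 Hox genes lay inside that range. The other 4 lay above it, and the median of all genes (67.0) lay inside it. The deposited table has no detection call, so whether a row at this level reports RNA or background was not tested, and since probes differ in brightness the rows are not ranked against each other.

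Hox rows varied within a narrow range, and genes of like intensity did so too. The median SD over the 18 arrays on the log2 scale was 0.13 for the Hox genes. It was 0.15 for the 12203 genes in the same range of mean intensity and 0.17 for all genes. In all 36 Hox genes the highest of 18 arrays was under 2-fold the lowest, with Hoxd1 the most variable (34.6 to 60.5). The share of all genes under 2-fold was not taken. The range of the 9 group means did not exceed 1 on the log2 scale in any Hox gene and was largest in Hoxa7 (0.47), beside 1027 of all 22180 genes (4.63%) and 248 of the 12203 genes in the same range of mean intensity (2.03%) that did. A count of 0 in 36 is near what either share gives. The family's level was close from array to array as well: the median Hox intensity lay between 37.9 and 42.3 on the 6 Gli3-/- arrays, between 37.6 and 42.4 on the 6 Gli3+/- arrays and between 37.4 and 40.0 on the 6 WT arrays.

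**Figure D1:**
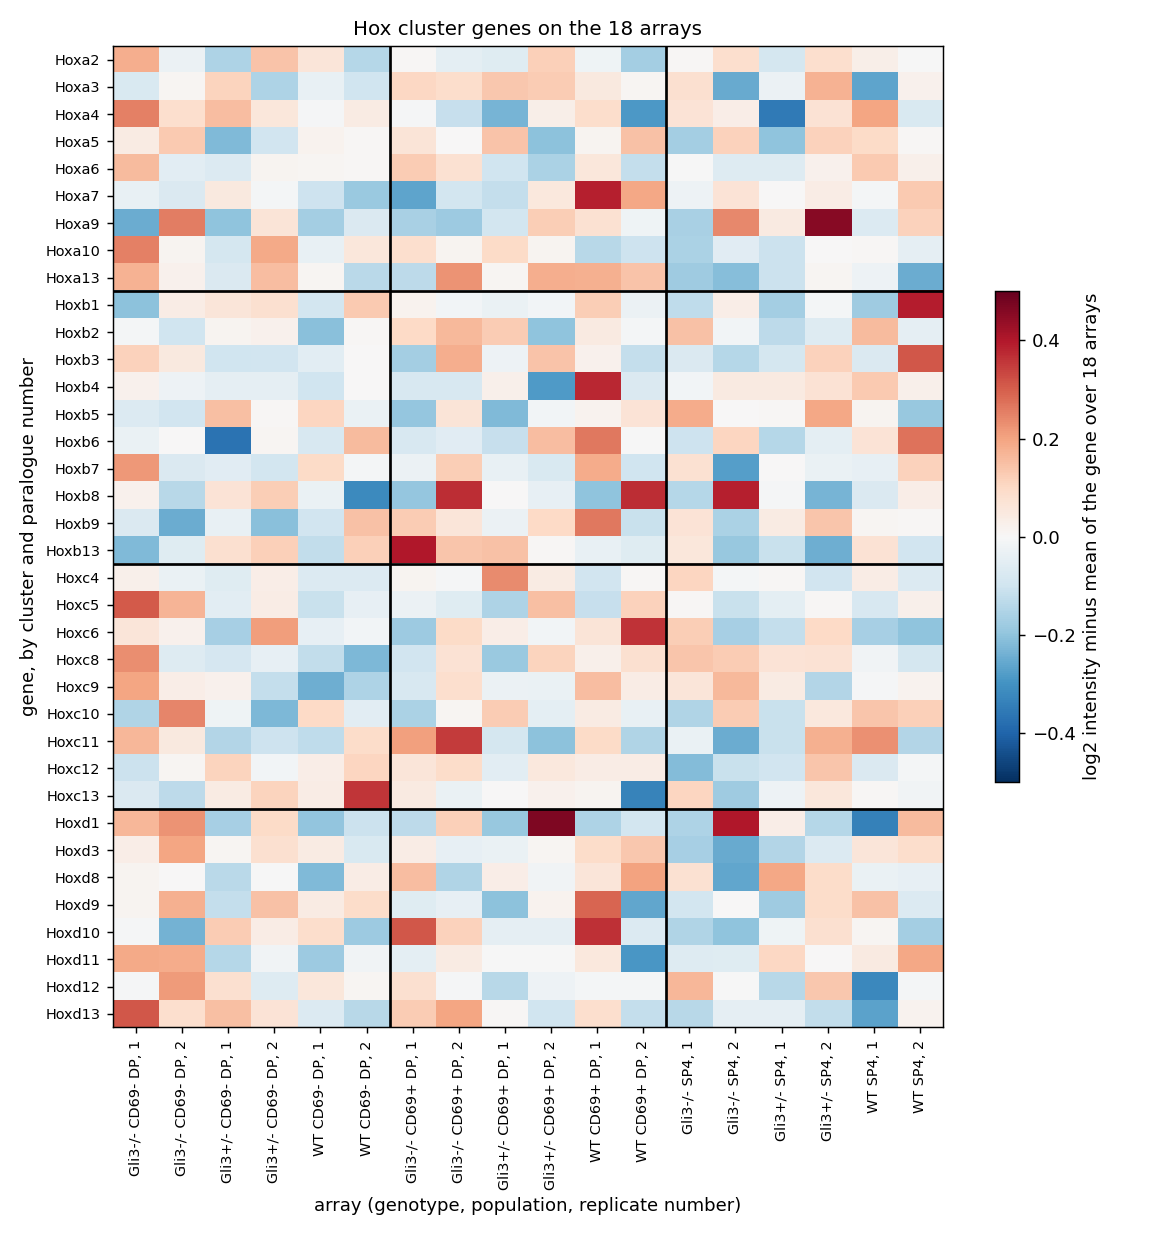
Log2 intensity of the 36 Hox cluster genes (rows, by cluster and paralogue number, heavy lines between clusters) on the 18 arrays (columns, by population and genotype), as the deviation from the gene's own mean. The strongest deviations belong to single arrays, such as Hoxd1 in Gli3+/- CD69+ DP replicate 2 (60.5) and Hoxa9 in Gli3+/- SP4 replicate 2 (46.5).

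Likeness from array to array was low on the median both within and between clusters. With group means removed, the median Pearson r over the 18 arrays was 0.03 for the 145 pairs within a cluster, -0.02 for the 32 pairs of measured neighbours and 0.07 for the 485 pairs from different clusters. These pairs share arrays and are given as a description.

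The first question was whether Hox genes differed between Gli3-/- and WT cells of the same population. In CD69- DP cells none of the 36 passed the test (adjusted p under 0.05, limma with Benjamini-Hochberg adjustment over 22180 genes). Among all genes 3 passed, or 0.0135%. All 3 were lower in Gli3-/-, and they are the sex-linked markers counted above. At the threshold that the methods name, an unadjusted p under 0.05, 4 of the 36 were counted, beside 446 of all genes (2.01%), and all 4 were higher in Gli3-/-, where 1.26% of all genes were counted as higher. These were Hoxc5, Hoxc9, Hoxd11 and Hoxd13. A row that carries Hoxb3 and Hoxb2 together, not counted among the 36, was lower in Gli3-/- (log2 -0.38, SE 0.16, unadjusted p = 0.0322). Its intensities were 56.9 and 78.9 in Gli3-/- and 88.5 and 85.7 in WT arrays. Counted with no test, 28 of 36 lay above 0 (47.7% of all genes did), and the family's median log2 difference was +0.07, with -0.01 for all genes and +0.01 for the 12203 genes in the same range of mean intensity. The 2 Gli3-/- arrays had Hox medians of 40.0 and 42.3, and the 2 WT arrays had 37.8 and 37.4.

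Hoxc9, a posterior Hoxc gene that patterns the thoracic region, had intensities of 52.7 and 47.1 in Gli3-/- CD69- DP cells, 46.7 and 42.4 in Gli3+/- cells and 38.8 and 41.3 in WT cells. Both Gli3-/- arrays stood above all 4 others (log2 +0.31, SE 0.12, unadjusted p = 0.0165, adjusted p = 1.0). Hoxd11, which shapes the forearm and kidney, had 56.3 and 56.2 in Gli3-/-, 44.7 and 48.7 in Gli3+/- and 43.6 and 48.8 in WT cells, again with no overlap between Gli3-/- and WT (log2 +0.29, SE 0.12). Hoxc5 had 16.3 and 14.8 in Gli3-/-, 12.7 and 13.5 in Gli3+/- and 12.2 and 12.8 in WT cells, a difference of a few units (log2 +0.32, SE 0.12). Hoxd1 had the largest fitted difference of the family (log2 +0.35), but with an SE of 0.22 that did not reach the unadjusted threshold.

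Hoxd13, the most posterior Hoxd gene and a digit-patterning gene that answers to Gli3 in the limb, is one of the Hox genes that the study names from these arrays, so its direction in CD69- DP cells is not independent evidence. Its intensities in CD69- DP cells were 41.9 and 35.8 in Gli3-/-, 37.6 and 35.5 in Gli3+/- and 32.2 and 30.7 in WT. In CD69+ DP cells they were 36.9 and 38.8 in Gli3-/-, 33.9 and 31.5 in Gli3+/- and 35.9 and 31.1 in WT, and in SP4 cells 30.7 and 32.7, 32.8 and 31.0, and 28.0 and 34.2 in the same order of genotypes. Gli3-/- arrays lay above both WT arrays in each DP population and overlapped them in SP4 cells. The log2 differences were +0.30, +0.18 and +0.03 (SE 0.13 each). Their average over populations was +0.17 (95% interval 0.01 to 0.33, unadjusted p = 0.0353, adjusted p = 1.0). On that average none of 36 was called (0.0135% of all genes). Hoxd13 was the only one counted unadjusted (3.8% of all genes). With arrays of a genotype and number averaged first, none of 36 had an unadjusted p under 0.05.

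Hoxa13, the posterior gene of the Hoxa cluster, and Hoxd8, a trunk gene, are named by the study as well. In CD69- DP cells Hoxa13 had 44.1 and 39.7 in Gli3-/-, 37.2 and 43.5 in Gli3+/- and 39.3 and 35.6 in WT arrays. The lower Gli3-/- array exceeded the higher WT array by less than 1 unit (log2 +0.16, SE 0.14). Hoxd8 had 87.9 and 87.2 in Gli3-/-, 79.2 and 86.9 in Gli3+/- and 74.6 and 89.4 in WT arrays, which overlapped (log2 +0.10, SE 0.14). In CD69+ DP cells Hoxd8 was 96.9 and 78.5 in Gli3-/-, 89.0 and 85.9 in Gli3+/- and 90.8 and 100 in WT, and in SP4 cells 91.7 and 72.7 in Gli3-/-, 99.4 and 92.7 in Gli3+/- and 85.0 and 84.6 in WT. Gli3-/- and WT overlapped in all 3 populations, while both Gli3+/- SP4 arrays lay above the other 4 of SP4 cells.

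By cluster, the differences in CD69- DP cells were above 0 in 9 of 9 Hoxa genes (median +0.12), 5 of 10 Hoxb genes (-0.01), 7 of 9 Hoxc genes (+0.07) and 7 of 8 Hoxd genes (+0.12). By position, they were above 0 in 9 of 10 anterior, 9 of 11 central and 10 of 15 posterior genes, with medians of +0.09, +0.07 and +0.07. Posterior genes stood at both ends: Hoxc9, Hoxd11 and Hoxd13 are named above, and Hoxc13 (log2 -0.30), Hoxb9 (-0.19) and Hoxb13 (-0.14) had the lowest values of the family. Hoxc13, a hair and nail gene, had 52.8 and 50.6 in Gli3-/-, 57.0 and 59.9 in Gli3+/- and 56.9 and 71.1 in WT cells. Gli3-/- and WT arrays did not overlap in 16 of the 36, with Gli3-/- above in 13 and below in 3, beside 14.5% and 14.6% of all genes.

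In CD69+ DP cells none of 36 passed the test, with 2 of all genes (0.00902%) passing. Both were sex-linked markers, lower in Gli3-/-. Unadjusted, 2 Hox genes were counted beside 646 of all genes (2.91%), 1 higher (1.55% of all genes) and 1 lower (1.36%) in Gli3-/-. The lower one was Hoxa7, a central Hoxa gene that is active in early blood progenitors, with the largest genotype difference of the family. Its intensities in CD69+ DP cells were 40.0 and 45.1 in Gli3-/-, 44.2 and 49.9 in Gli3+/- and 62.9 and 54.98 in WT. The 2 WT arrays were the highest of all 18 for this gene, while the other 16 lay between 40.0 and 52.6. In CD69- DP cells it was 46.8 and 45.7 in Gli3-/-, 49.7 and 47.8 in Gli3+/- and 44.7 and 42.2 in WT. In SP4 cells it was 47.3 and 50.3 in Gli3-/-, 48.1 and 49.3 in Gli3+/- and 47.7 and 52.6 in WT. The log2 difference in CD69+ DP cells was -0.47 for Gli3-/- against WT (SE 0.11, unadjusted p = 0.00114, adjusted p = 1.0) and -0.32 for Gli3+/- against WT (unadjusted p = 0.0136). Both comparisons rest on the same 2 WT arrays. A second row, which carries the symbols Mira and Hoxa7 together and is not counted among the 36, had 73.7 and 58.1 in Gli3-/-, 59.8 and 50.7 in Gli3+/- and 61.3 and 55.8 in WT CD69+ DP cells (Gli3-/- against WT, log2 +0.16).

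Hoxb13, the posterior gene of its cluster and a prostate and tail gene, was the higher one: 46.3 and 38.7 in Gli3-/- CD69+ DP cells, 38.9 and 35.3 in Gli3+/- cells and 34.2 and 33.7 in WT cells (log2 +0.32, SE 0.14). Its Gli3-/- against WT value in CD69- DP cells had the opposite sign (-0.14). Hoxc11, with 22.8 and 25.2 in Gli3-/-, 18.6 and 17.2 in Gli3+/- and 21.1 and 17.8 in WT arrays, had the largest difference between the 2 mutant genotypes (Gli3-/- against Gli3+/-, log2 +0.42, unadjusted p = 0.0158, adjusted p = 1.0). Against WT the Gli3-/- value of Hoxc11 was +0.30, and those of Hoxc6 and Hoxb4 were -0.26 and -0.23. Over the family 20 of 36 lay above 0 in CD69+ DP cells (49.7% of all genes) and the median was +0.01.

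In SP4 cells none of 36 passed the test, with 3 of all genes (0.0135%) passing. Of these, 2 were lower in Gli3-/- and were sex-linked markers, and 1 was higher. Over the family 13 of 36 lay above 0, near the 44.5% of all genes, and the median was -0.05, beside -0.02 for all genes. Hoxd3, an anterior Hoxd gene of the neck and hindbrain, was the only one with an unadjusted p under 0.05, beside 1139 of all genes (5.14%, and 2.97% counted as lower). Its SP4 intensities were 59.2 and 55.8 in Gli3-/-, 60.03 and 63.4 in Gli3+/- and 69.4 and 70.5 in WT, so that the 3 genotypes did not overlap and Gli3+/- lay between the others (Gli3-/- against WT, log2 -0.28, SE 0.10, unadjusted p = 0.0160, adjusted p = 0.952). In CD69- DP cells it was 68.0 and 76.2 in Gli3-/-, 66.9 and 70.3 in Gli3+/- and 68.4 and 63.0 in WT. Gli3-/- lay below WT without overlap in 6 of 36 Hox genes in SP4 cells, beside 17.9% of all genes. A row that carries Hoxd4 and Hoxd3 together had log2 -0.10 (SE 0.21) in SP4 cells. Its intensities there overlapped, with 40.7 and 35.2 in Gli3-/- and 46.1 and 35.5 in WT. At the ends of the family stood Hoxd12 (+0.25), Hoxd1 (+0.21) and Hoxc8 (+0.19), and below 0 next to Hoxd3 came Hoxb3 (-0.23) and Hoxc11 (-0.18). Myeloid markers varied between the same SP4 arrays, with sums of 604 and 1262 in Gli3-/-, 1363 and 1594 in Gli3+/- and 1457 and 1459 in WT, and their part in the Hox values was not tested. None of the 9 was called between Gli3-/- and WT.

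**Figure D2:**
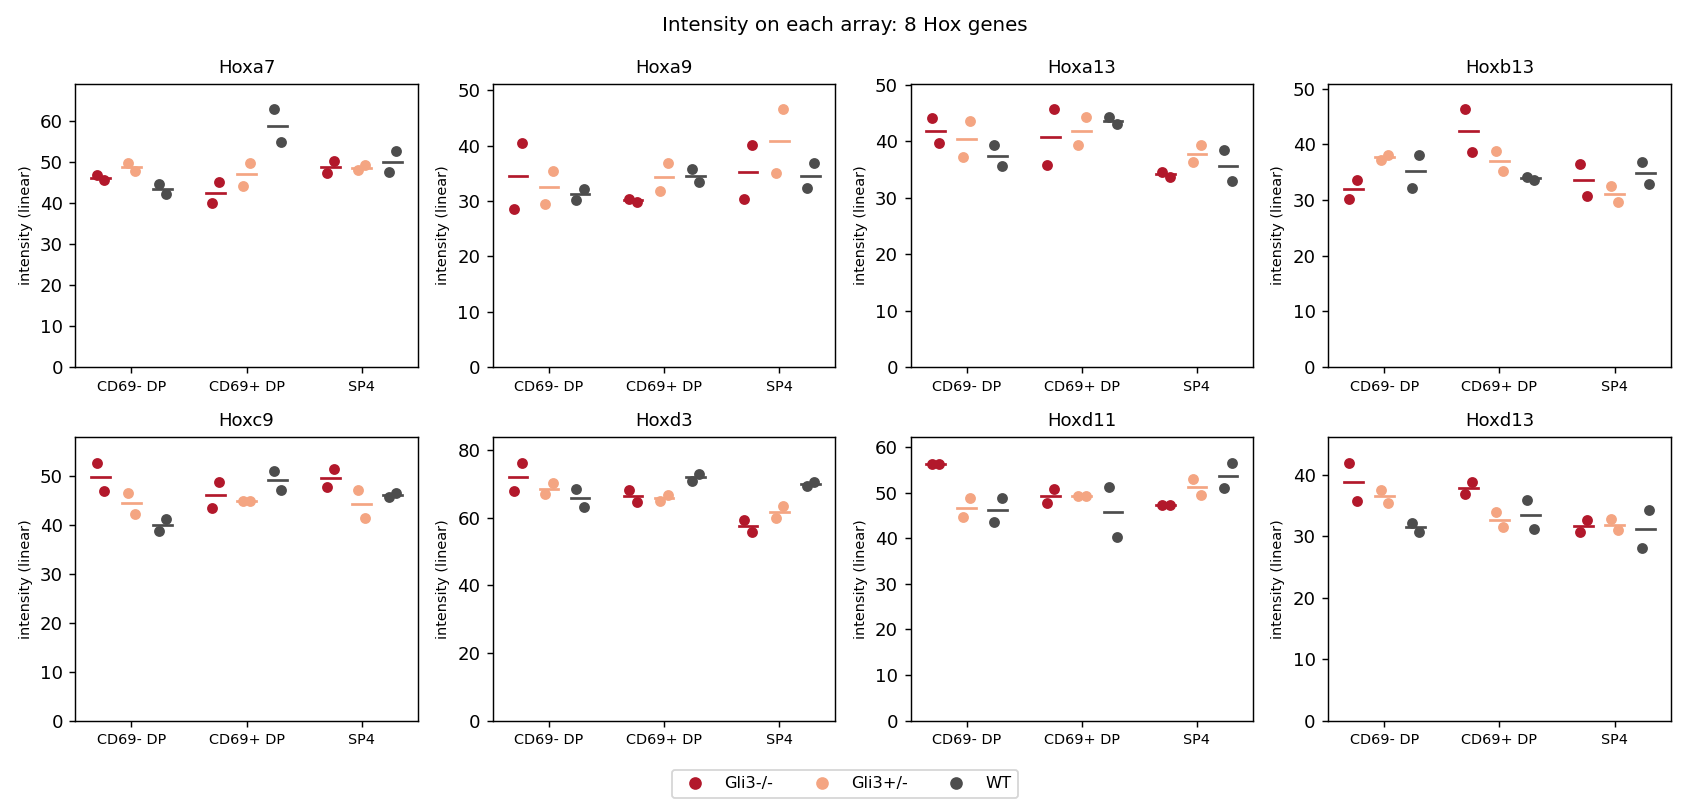
Intensity (linear, from 0) of 8 Hox genes on every array, by population, with Gli3-/-, Gli3+/- and WT from left to right in each. Points are single arrays and bars the mean of the 2. Hoxa7 stands out in WT CD69+ DP cells (62.9 and 54.98), and Hoxd3 steps down in Gli3-/- SP4 cells (59.2 and 55.8, with 69.4 and 70.5 in WT).

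**Figure D3:**
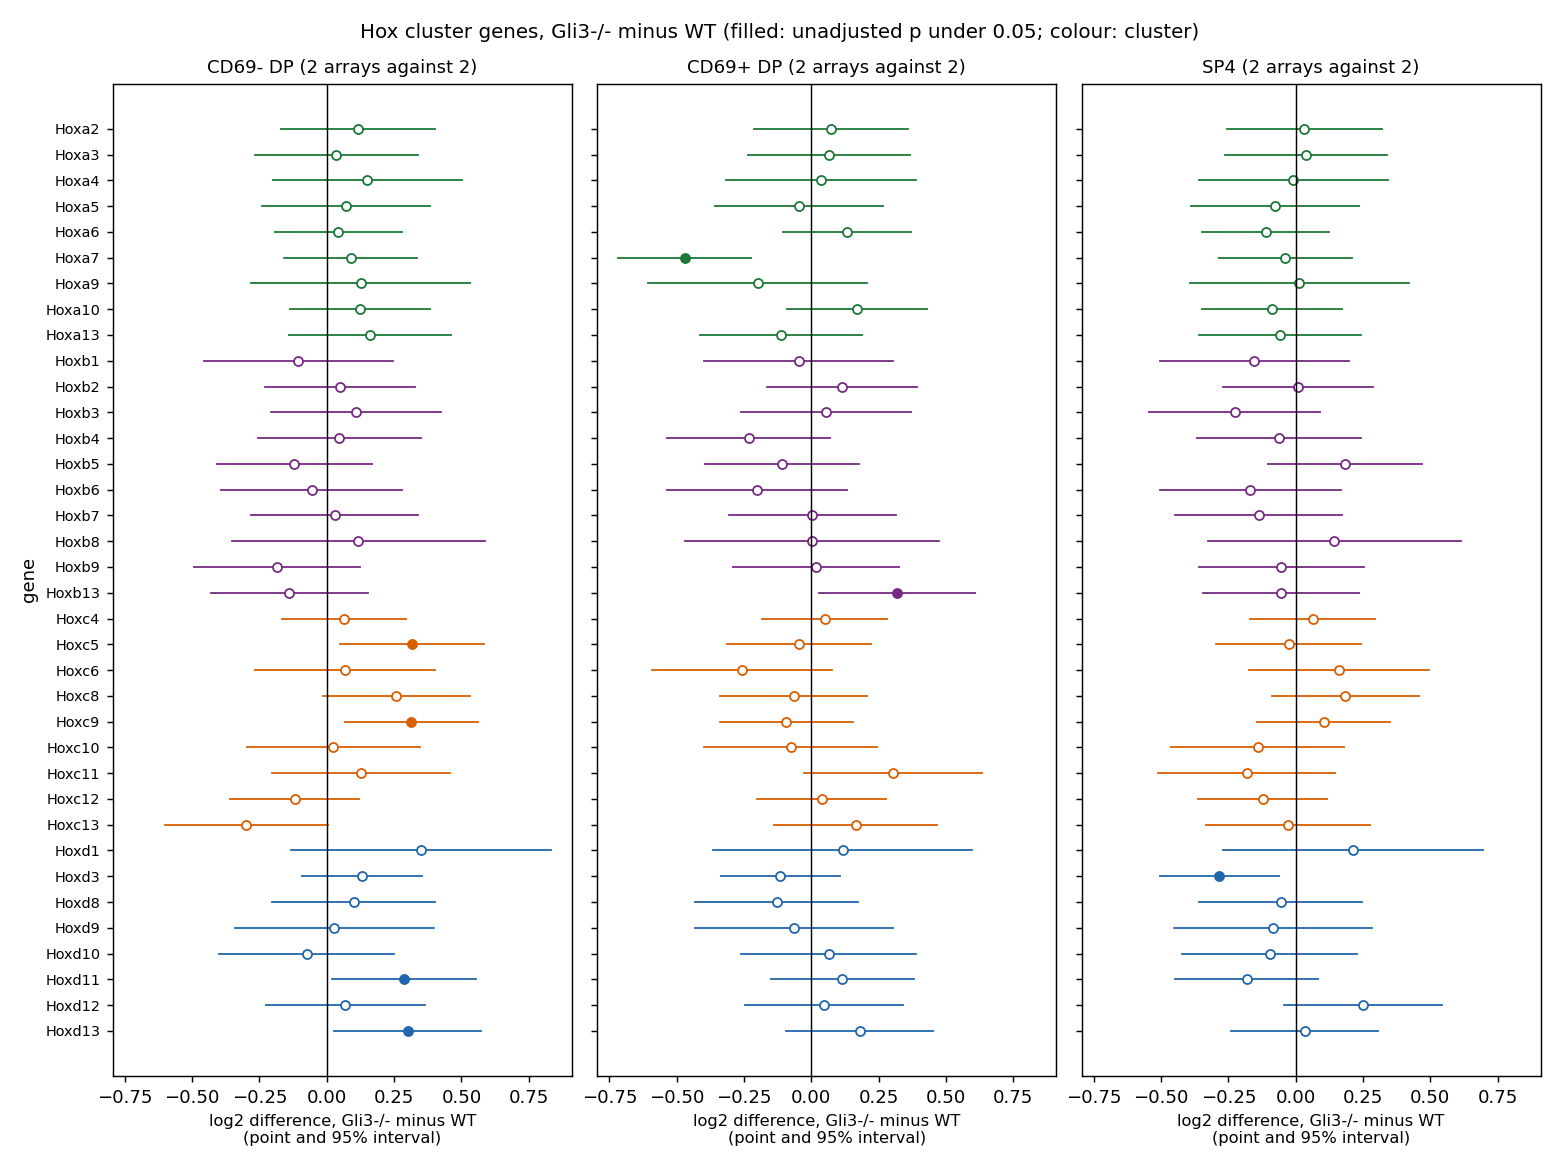
Log2 difference of Gli3-/- minus WT with its 95% interval for each of the 36 Hox genes in the 3 populations, coloured by cluster. Filled points have an unadjusted p under 0.05 (4 genes in CD69- DP, 2 in CD69+ DP and 1 in SP4 cells), and none passed after adjustment over 22180 genes.

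Whether the genotype difference itself changed between populations was tested as an interaction, and no Hox gene passed (0 of all genes passed either interaction, 0%). Between CD69+ DP and CD69- DP cells 4 of 36 had an unadjusted p under 0.05 (2.06% of all genes). They were Hoxa7 (log2 -0.56), Hoxc9 (-0.41), Hoxb13 (+0.46) and Hoxc13 (+0.46). Between SP4 and CD69- DP cells there were 2 (3.08% of all genes), Hoxd11 (-0.47) and Hoxd3 (-0.42). All adjusted p were 1.0 after rounding.

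Gli3+/- cells carry 1 mutant allele. None of 36 passed against WT in any population, and neither did any of the 22180 genes (0%), while 392 genes (1.77%) in CD69- DP, 550 (2.48%) in CD69+ DP and 914 (4.12%) in SP4 cells had an unadjusted p under 0.05. Of the Hox genes, Hoxa7 in CD69+ DP cells alone had. On the average over populations 1 of 36 did (3.83% of all genes), Hoxb6, a central gene active in haematopoietic and mesodermal progenitors (log2 -0.20, unadjusted p = 0.0448). It had 20.7 and 26.9, 24.6 and 29.7, and 24.2 and 25.8 in Gli3+/- arrays, going through CD69- DP, CD69+ DP and SP4. WT arrays of the same populations had 25.2 and 29.8, 32.1 and 26.6, and 27.98 and 32.2. With arrays of a genotype and number averaged first, none of 36 had an unadjusted p under 0.05 on the average over populations. Gli3+/- values lay above 0 in 10 of 36 genes in CD69+ DP cells (49.1% of all genes), with a median of -0.07, but this rested on 1 array: without WT CD69+ DP replicate 1, 20 of 36 lay above 0 and the median was +0.01. The extremes against WT were Hoxb8 (+0.27), Hoxd13 (+0.21) and Hoxa7 (+0.17) with Hoxb6 (-0.22), Hoxa5 (-0.17) and Hoxb9 (-0.15) in CD69- DP cells. They were, in CD69+ DP cells, Hoxd1 (+0.26), Hoxc4 (+0.18) and Hoxa10 (+0.18) with Hoxa7 (-0.32), Hoxb4 (-0.28) and Hoxc6 (-0.21). In SP4 cells they were Hoxa9 (+0.23), Hoxa3 (+0.19) and Hoxb5 (+0.19) with Hoxb6 (-0.27), Hoxa4 (-0.20) and Hoxb1 (-0.20). Directly between Gli3-/- and Gli3+/- cells none of 36 passed in any population, with 1 of all genes (0.00451%) passing in each. Hoxd11 in CD69- DP cells (log2 +0.27) and Hoxc11 in CD69+ DP cells were the only Hox genes at the unadjusted threshold, beside 1.96%, 2.18% and 3.07% of all genes over the populations in their order of maturation.

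The other extremes of Gli3-/- against Gli3+/- were Hoxc5 (+0.25) and Hoxa5 (+0.24) with Hoxb13 (-0.24), Hoxd10 (-0.20) and Hoxc13 (-0.18) in CD69- DP cells. They were Hoxd10 (+0.26) and Hoxa6 (+0.23) with Hoxa9 (-0.19), Hoxa7 (-0.15) and Hoxd1 (-0.14) in CD69+ DP cells. SP4 cells had Hoxb8 (+0.24), Hoxa4 (+0.19) and Hoxd1 (+0.18) with Hoxd8 (-0.23), Hoxa9 (-0.21) and Hoxd10 (-0.20). On the average over populations Gli3-/- against WT ran from Hoxd1 (+0.23), Hoxd13 (+0.17) and Hoxc8 (+0.13) to Hoxb6 (-0.14), Hoxa7 (-0.14) and Hoxb1 (-0.10), and Gli3+/- against WT from Hoxd1 (+0.14), Hoxa3 (+0.11) and Hoxa9 (+0.09) to Hoxb6 (-0.20), Hoxa5 (-0.12) and Hoxb4 (-0.10). Hoxd10 thus had opposite signs in CD69- DP and CD69+ DP cells, and no gene of these lists passed the test.

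Members with known roles in blood or thymus were set out whether or not they moved. Hoxa9, Hoxa10, Hoxb3, Hoxb4, Hoxb6 and Hoxc4 act in stem and progenitor cells, Hoxa5 in myeloid choice and Hoxa3 in the thymic primordium. Gli3-/- against WT gave log2 differences between -0.23 and +0.17 for these 8 genes over the 3 populations, with standard errors between 0.11 and 0.19. In its own row none of the 8 reached an unadjusted p under 0.05. Hoxa7, the other member with a role in early blood progenitors, did so in CD69+ DP cells (log2 -0.47, given above). Hoxb4 had 31.3 and 31.3 in Gli3-/- CD69+ DP cells and 42.9 and 31.4 in WT (log2 -0.23), where a single WT array was high. Hoxa3 had 30.2 and 24.0 in Gli3-/- SP4 cells and 23.7 and 28.9 in WT (log2 +0.04). Hoxc4, whose gene is active in lymphoid cells, had the lowest SD over the 18 arrays on the log2 scale among the 36 (0.08), with intensities between 36.7 and 46.2.

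The second question was whether Hox genes changed as thymocytes matured. Averaged over genotypes, 1728 of 22180 genes (7.79%) passed the test between CD69+ DP and CD69- DP cells, 1365 (6.15%) between SP4 and CD69+ DP cells and 2169 (9.78%) between SP4 and CD69- DP cells. None of the 36 Hox genes passed at any of the 3 steps. With the replicate number as a block 12.1%, 11.2% and 14.1% of all genes passed at the 3 steps, and again none of the 36. Their log2 differences lay between -0.23 and +0.17, and over all 36 genes and 3 steps the 95% intervals ran from -0.40 to +0.40. Without adjustment 0, 2 and 2 of the 36 passed at the 3 steps, beside 19.6%, 19.7% and 20.2% of all genes.

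Hoxa13 was the nearest to a call. Against CD69+ DP cells, its 6 SP4 arrays ran from 32.9 to 39.3 (median 35.4) and its 6 CD69+ DP arrays from 35.7 to 45.7 (median 43.7). It was lower in SP4 in 6 of 6 pairs of the same genotype and replicate number, as was Hoxd3. The share of all genes with every pair on the same side was not taken. Hoxa13 in SP4 cells read 34.5 and 33.8 in Gli3-/-, 36.2 and 39.3 in Gli3+/- and 38.4 and 32.9 in WT. In CD69+ DP cells it read 35.7 and 45.7 in Gli3-/-, 39.3 and 44.4 in Gli3+/- and 44.2 and 43.1 in WT. The lowest CD69+ DP array, Gli3-/- replicate 1, lay inside the SP4 range, and the other 5 lay above it. The log2 difference was -0.23 (SE 0.08, adjusted p = 0.123). With genotype and number as a block Hoxa13 passed by a small margin (adjusted p = 0.0481). That fit called 2887 genes in all (13%). Whether the numbers pair arrays within a genotype is not known, though the sex-linked sums of WT arrays stood apart by number. That block called no other Hox gene at any step, with 13.8% of all genes called between CD69+ DP and CD69- DP cells and 15.9% between SP4 and CD69- DP cells. Hoxb13 had a log2 difference of -0.18 at the same step, and Hoxd13 one of -0.17 between SP4 (28.0 to 34.2, median 31.9) and CD69- DP cells (30.7 to 41.9, median 35.6). Hoxa13 and Hoxd3 had -0.15 and -0.13 between SP4 and CD69- DP cells. Between CD69+ DP and CD69- DP cells the extremes were Hoxb9 (+0.15), Hoxd10 (+0.13) and Hoxa3 (+0.13, higher in 6 of 6 pairs) with Hoxa4 (-0.18), Hoxc13 (-0.10) and Hoxd9 (-0.10). Between SP4 and CD69+ DP cells Hoxd10 was at -0.18, and the highest were Hoxa9 (+0.15), Hoxb5 (+0.08) and Hoxa4 (+0.08).

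At the other end, Hoxa9, the progenitor gene, had the highest value of the family between SP4 and CD69- DP cells: 30.3 to 46.5 (median 35.9) in SP4 and 28.5 to 40.5 (median 31.2) in CD69- DP arrays, which overlapped (log2 +0.17, SE 0.11, adjusted p = 0.464). Hoxb9 and Hoxc8 came next (+0.10 each). Markers of early progenitors and of myeloid cells passed the test in the same SP4 arrays. Of them 8 of 11 and 7 of 9 were called higher than in CD69- DP cells, beside 5.94% of all genes. The part of these markers in the Hoxa9 value was not tested. By cluster, the median differences between SP4 and CD69- DP cells were 0.00 for Hoxa, +0.03 for Hoxb, -0.01 for Hoxc and -0.06 for Hoxd genes. By position, they were 0.00 for anterior, +0.03 for central and -0.07 for posterior genes, with -0.01 for all genes.

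**Figure D4:**
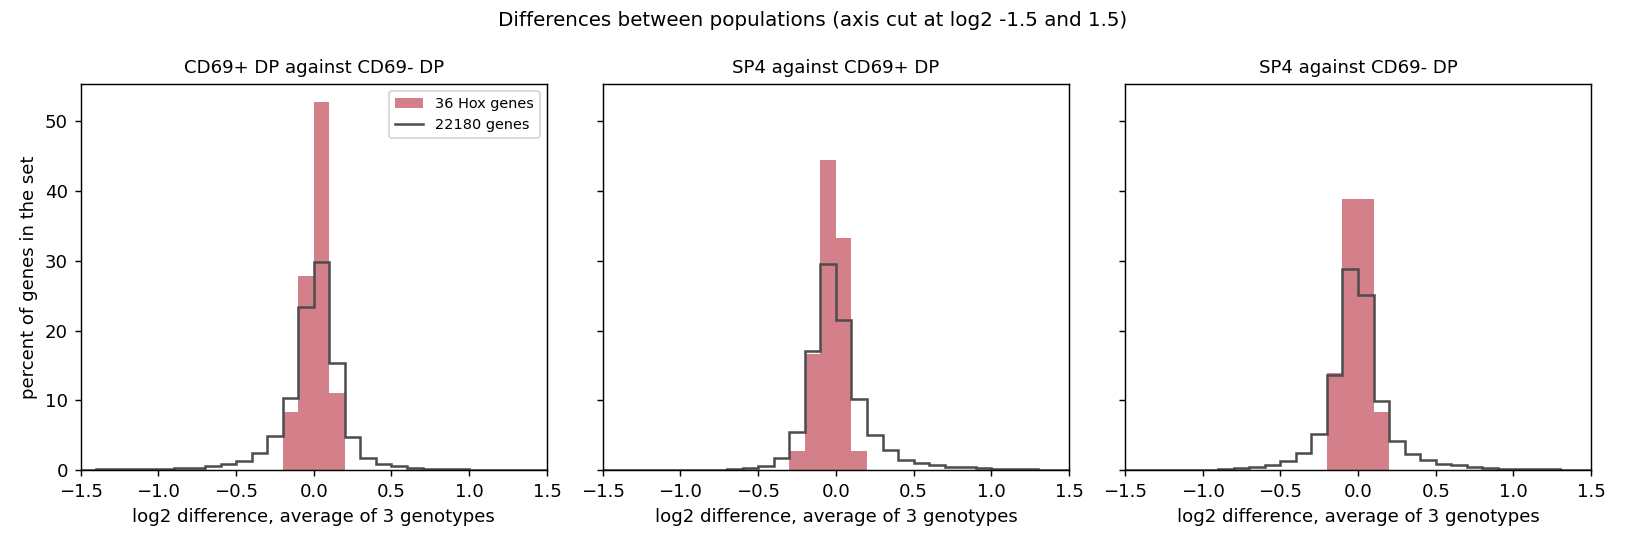
Distribution of log2 differences between populations, averaged over the 3 genotypes, for the 36 Hox genes (filled) and all 22180 genes (line), as percent of each set in bins. The Hox genes stay between -0.23 and +0.17 at all 3 steps, while the tails of all genes run past the axis limits.

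Array number, which the labels give as replicate 1 or 2, gave the one Hox call of the fit without a block. Over the 9 groups 2569 genes (11.6%, and 24.6% without adjustment) differed between number 2 and number 1, and 1 of the 36 did: Hoxa9, with 29.9 to 46.5 (median 36.8) on number 2 arrays and 28.5 to 35.7 (median 30.3) on number 1 arrays (log2 +0.22, SE 0.07, adjusted p = 0.0497, limma). Hoxd1 had 39.7 to 60.5 (median 47.6) on number 2 and 34.6 to 49.2 (median 39.4) on number 1 arrays (log2 +0.25, adjusted p = 0.0602), and Hoxd10 had -0.15 (adjusted p = 0.135). The Hoxa9 call was lost when an array of any of 7 of the 9 groups was left out (log2 between +0.18 and +0.23 in those fits), and it held without an array of Gli3-/- or WT CD69+ DP cells. Without an array of Gli3+/- SP4 cells Hoxd1 was called in its place (log2 +0.30). The array that set the highest Hoxa9 value, Gli3+/- SP4 replicate 2, is a number 2 array. The labels do not say what the numbers stand for. Of 8 stress and immediate early genes 6 were called higher on number 2 arrays, beside 7.56% of all genes. The part of these stress genes in the Hoxa9 value was not tested.

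Among non-coding genes of the clusters, 6 of 17 listed had a row of their own: Hotair, Hoxaas3, Mir10b, Mir196a-1, Mir196a-2 and Mir615. Mir615, a microRNA gene that lies within Hoxc5, was the only one of these 6 and of the 36 Hox genes that passed at a population step in the fit without a block. The arrays used whole transcript labelling, so the row reads RNA of the locus and not the mature microRNA as such. Its mature sequences are shown with the seed, bases 2 to 8 that pair with targets, in capitals (RefSeq, GRCm38.p6, plus strand), from chr15:103014926-103014947 for the 5p arm and chr15:103014969-103014990 for the 3p arm. The seeds of the arms differ.
mmu-miR-615-5p: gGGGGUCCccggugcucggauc
mmu-miR-615-3p: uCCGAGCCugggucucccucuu

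Mir615 was higher in CD69+ DP than in CD69- DP cells. The CD69+ DP intensities were 77.2 and 81.8 in Gli3-/-, 74.5 and 76.5 in Gli3+/- and 89.5 and 64.1 in WT arrays, and in CD69- DP cells 52.0 and 58.3 in Gli3-/-, 47.3 and 48.5 in Gli3+/- and 53.8 and 63.5 in WT arrays. All 6 CD69+ DP arrays lay above all 6 CD69- DP arrays (log2 +0.52, SE 0.08, adjusted p = 0.00221). It was higher in SP4 than in CD69- DP cells too (log2 +0.35, adjusted p = 0.0157), a call that was lost when either WT CD69- DP replicate 1 or Gli3-/- CD69- DP replicate 1 was left out (log2 +0.31 and +0.32). In SP4 cells its values were 59.0 and 55.8 in Gli3-/-, 64.1 and 69.1 in Gli3+/- and 80.0 and 88.0 in WT, with no overlap between genotypes (Gli3-/- against WT, log2 -0.55, unadjusted p = 0.00221, adjusted p = 0.823). Its host gene Hoxc5 had log2 differences of -0.07 (CD69+ DP against CD69- DP) and -0.09 (SP4 against CD69- DP) and was not called.

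Regulators of the clusters were read at the same population steps. Polycomb complexes silence Hox genes through methylation of histone H3, and 19 of 20 listed genes of that group were measured. Between CD69+ DP and CD69- DP cells 2 of the 19 were called higher and 2 lower, beside 3.06% and 4.73% of all genes. Ezh2, the methyltransferase, was lower (log2 -0.61, adjusted p = 7.56e-04), with 1158 to 1687 on the 6 CD69+ DP arrays and 1878 to 2190 on the 6 CD69- DP arrays. Phf19, which helps the complex bind, was lower as well (log2 -0.56, adjusted p = 0.0105), and Jarid2, which recruits it, was higher (log2 +0.80, adjusted p = 1.45e-04). The other called higher, Kdm6b (log2 +0.51, adjusted p = 8.70e-04), is a demethylase that removes the Polycomb mark, so the list holds an opponent of the group too. Between SP4 and CD69+ DP cells Jarid2 and Kdm6b were called lower, beside 1.74% of all genes (log2 -0.47 and -0.52, adjusted p = 0.00592 and 8.60e-04). Between SP4 and CD69- DP cells Jarid2 was called higher (log2 +0.33) and Ezh2 lower (log2 -0.42), beside 5.94% and 3.84% of all genes.

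**Figure D5:**
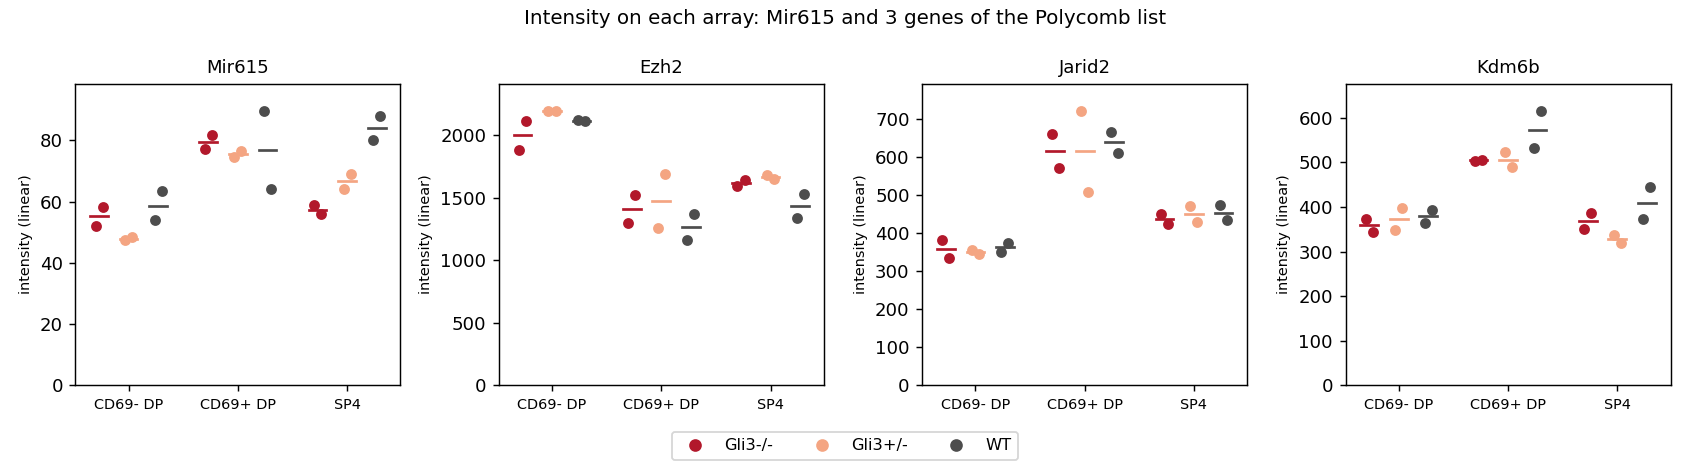
Intensity (linear, from 0) of Mir615, Ezh2, Jarid2 and Kdm6b on every array, by population, with Gli3-/-, Gli3+/- and WT from left to right in each. Points are single arrays and bars the mean of the 2. Ezh2 is highest in CD69- DP cells, Jarid2 and Kdm6b in CD69+ DP cells, and Mir615 is lower on all 6 CD69- DP than on all 6 CD69+ DP arrays.

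Trithorax and Dot1l genes, which keep Hox genes active, were measured for 14 of 14, and 1 of them was called at the step between the DP populations, near the 7.79% of all genes: Psip1, which binds active chromatin, was lower in CD69+ DP than in CD69- DP cells (log2 -0.35, adjusted p = 0.00984). Of the TALE cofactors, the Pbx and Meis family proteins that bind DNA together with Hox proteins, 8 of 9 were measured and none was called at any step or between Gli3-/- and WT. Relatives of the clusters, the ParaHox and linked homeobox genes, gave 0 of 12. Between Gli3-/- and WT none of the genes of these 4 lists passed in any population. Kdm6a, the X-linked relative of Kdm6b, had log2 differences for Gli3-/- against WT of +0.49 in CD69- DP, +0.61 in CD69+ DP and +0.69 in SP4 cells, each with an unadjusted p under 0.05, in arrays whose sex and genotype cannot be told apart.

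The Hedgehog list gave no Gli3-/- against WT call in any population (17 of 18 genes measured). Promoters of 22 of the listed Hox genes, 24 promoters in all, were searched on both strands for the Gli consensus GACCACCCA over 300 bases around the start (RefSeq, GRCm38.p6). None held it, beside 83 of all 32851 promoters (0.253%). This says only that these letters are not in that window.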

How the data were processed

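Whole transcript expression was measured on Affymetrix Mouse Gene 2.0ST arrays. The authors normalised the arrays with RMA in the oligo package and deposited linear intensity values for 41345 rows. No source used here gives versions, genome build or annotation release. Here log2 was taken and nothing else was normalised. Of the rows 23521 had 1 gene symbol in the platform annotation, 1820 had several and 16004 had none. The brightest row of a gene was kept, which gave 22180 genes (1082 had more than 1 row). Hoxb5 had 2 rows (means 89.1 and 73.1, r = -0.31 over 18 arrays).

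All 18 arrays entered 1 limma fit with 9 group means (limma 3.58.1, R 4.3.3, 9 residual and 4.73 prior degrees of freedom), with adjusted p-values over all genes. The fit was tested on simulated data with added differences far larger than those of the Hox genes. That test does not show what the fit can find at their size. The number of arrays limits the precision.

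Members and lists were chosen with earlier results of these data known. The text names each Hox gene called in any comparison, the 3 highest and 3 lowest in each comparison of groups or populations, those the study names and those with roles in blood or thymus. The main fit paired no arrays. For population steps, an alternative fit took arrays of a genotype with the same number in their labels as paired. Rep 2 minus rep 1 differences correlated between 0.134 and 0.435 over the 9 pairs of groups of 1 genotype. They correlated between 0.245 and 0.549 over 9 pairs of 1 population and between 0.0777 and 0.434 over 18 pairs sharing neither. The correlations thus do not single out a pairing within a genotype. A comparison of 2 groups holds only 2 pairs. Alternatives were the replicate block, quantile or cyclic loess normalisation, a filter on dim genes, all rows, the mean of a gene's rows, a variance trend, only the groups compared, arrays of a genotype and number averaged, the methods' t-test and each array left out in turn.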

Additional observations from a re-analysis of the deposited data

How the results depend on the processing

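When the replicate number entered as a block, the count of Hox genes called was 0 in all 16 comparisons of genotypes and populations. Over all genes it called 2673, 2475 and 3131 at the 3 population steps, against 1728, 1365 and 2169 without it. For comparisons of 2 groups the pairing cannot be checked with 2 pairs each. With genotype and number as a block, the count of Hox genes was 1 between SP4 and CD69+ DP cells (Hoxa13), and 3061, 2887 and 3528 genes were called in all. Over 278 combinations of a comparison and an alternative the count of Hox genes called was the same in 261 and moved in 17. The other 16 all concern array number 2 against number 1. The count was 2 with quantile normalisation and 2 with cyclic loess (Hoxa9 and Hoxd1), beside 2649 and 2615 of all 22180 genes. It was 0 with only genes at or above the median row, which kept 6 Hox genes, beside 2729 of 11577 genes. With all rows it was 0, beside 4679 of 41345 rows. It lay between 0 and 1 with single arrays left out. The cause was not tested. No log2 difference of a Hox gene with an unadjusted p under 0.05 changed sign. These genes were picked at that threshold from the same arrays, so a change of sign was unlikely from the outset. The family's median in CD69- DP cells, Gli3-/- against WT, lay between 0.05 and 0.09 and in SP4 cells between -0.08 and -0.02 over the alternatives, while in CD69+ DP cells it lay between -0.05 and 0.04, with quantile normalisation (-0.01) and cyclic loess (-0.02) below 0. The methods name limma for the arrays and an unpaired, two-tailed t-test in their section on statistics. For Gli3-/- against WT that t-test was run on 2 against 2 arrays, with populations in their order of maturation. Without adjustment it gave 1, 0 and 2 Hox genes, beside 894, 816 and 850 of all 22180 genes. After Benjamini-Hochberg it gave 0, 0 and 0 Hox genes, beside 0, 0 and 0 of all genes. Dim rows and 2 arrays a group limit what can be seen: the median standard error of a Hox difference between 2 groups was 0.14.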
